A study of Mus musculus with 11 samples.

Results

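The 7 genes Hmgcs1, Idi1, Sqle, Lss, Cyp51, Msmo1 and Sc5d encode enzymes of cholesterol synthesis and were taken by name. Earlier results of these data were known when they were chosen, so contrasts of the 7 with other genes are not independent of the data. All 7 were found among the 23255 genes measured. All are enzymes of synthesis, so none of them takes cholesterol up, and uptake genes are described below from a separate list. Total RNA of lung was sequenced from C57BL/6 mice in 11 libraries. The control group (3 libraries) came from untreated mice, the naphthalene group (3) from mice given naphthalene, an aromatic hydrocarbon toxic to airway club cells, and the osimertinib group (5) from mice given naphthalene and then osimertinib, an inhibitor of the EGF receptor. All groups are of 1 strain and carry no altered allele that the labels name. Dose, time, age and sex are not given in the sources used here. Nothing there says that replicates are separate animals, so every p-value below reflects the spread of these libraries alone, which may be technical.

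Cells build cholesterol from acetyl-CoA. Hmgcs1 makes HMG-CoA at the start of the route, Idi1 interconverts the isoprenoid units that are joined into squalene, Sqle adds oxygen to squalene, and Lss closes the rings to give lanosterol. Cyp51, Msmo1 and Sc5d then trim and desaturate the sterol. When sterol in the endoplasmic reticulum is scarce, the transcription factor SREBP2, the product of Srebf2, is carried to the Golgi by Scap, cut there and sent to the nucleus, where it turns on genes of this route together with the factors NF-Y and Sp1. In lung, cholesterol is a component of the surfactant that alveolar type 2 cells make.

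The sequence just before the start of transcription is shown for the 6 genes that had an entry in the promoter table. Such stretches can carry the letters that NF-Y, Sp1 and SREBP2 are known to bind. The part of these letters in the levels of the genes was not tested. Each run is the 180 bases before the start annotated by RefSeq on GRCm38.p6, on the strand of the gene. Capitals mark 3 motifs on either strand. The NF-Y box is CCAAT, which reads ATTGG on the other strand. The Sp1 box is GGGCGG, which reads CCGCCC on the other strand. The form of the sterol regulatory element searched is TCACNCCAC. No base fell in more than 1 of these motifs. The runs lie at chr13:119690171-119690350 (plus strand, Hmgcs1), chr13:8885426-8885605 (plus, Idi1), chr10:76531425-76531604 (plus, Lss), chr5:4104698-4104877 (minus, Cyp51), chr8:64733579-64733758 (minus, Msmo1) and chr9:42264301-42264480 (minus, Sc5d).
Hmgcs1: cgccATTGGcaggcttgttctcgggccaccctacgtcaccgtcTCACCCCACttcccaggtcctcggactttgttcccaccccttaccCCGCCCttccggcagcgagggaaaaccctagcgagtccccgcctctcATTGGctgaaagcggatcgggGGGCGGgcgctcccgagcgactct
Idi1: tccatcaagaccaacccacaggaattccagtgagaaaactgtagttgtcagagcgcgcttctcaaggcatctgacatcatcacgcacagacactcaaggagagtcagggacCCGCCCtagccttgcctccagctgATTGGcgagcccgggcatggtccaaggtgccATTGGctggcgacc
Lss: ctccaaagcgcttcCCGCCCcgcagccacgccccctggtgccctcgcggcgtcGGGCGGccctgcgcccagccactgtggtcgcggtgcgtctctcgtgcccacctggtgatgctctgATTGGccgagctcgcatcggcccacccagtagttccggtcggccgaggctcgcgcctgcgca
Cyp51: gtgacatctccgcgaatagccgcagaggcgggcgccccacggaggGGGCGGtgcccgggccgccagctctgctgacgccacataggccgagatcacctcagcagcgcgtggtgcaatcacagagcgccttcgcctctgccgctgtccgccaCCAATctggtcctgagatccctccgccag
Msmo1: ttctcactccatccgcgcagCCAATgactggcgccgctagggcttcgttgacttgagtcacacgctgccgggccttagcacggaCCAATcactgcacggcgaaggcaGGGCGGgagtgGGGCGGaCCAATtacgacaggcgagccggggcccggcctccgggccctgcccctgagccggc
Sc5d: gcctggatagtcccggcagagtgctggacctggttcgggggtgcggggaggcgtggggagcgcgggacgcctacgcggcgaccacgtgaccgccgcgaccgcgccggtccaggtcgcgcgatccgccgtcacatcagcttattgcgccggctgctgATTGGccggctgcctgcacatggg

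The whole window in the table reaches from 250 bases before to 50 bases after the start. A CCAAT box stood in the window of 6 of these 6 genes, against 37.4% of all 32851 mouse promoter windows of that length. A GGGCGG box also stood in 6 of 6, against 35.7%. TCACNCCAC stood in 1 of 6, in Hmgcs1, against 1.24%, and is visible above as TCACCCCAC. In the stretches shown Msmo1 had 3 CCAAT boxes, Hmgcs1 and Idi1 had 2, and Lss, Cyp51 and Sc5d had 1, and Sc5d had no GGGCGG there. These are matches of letters in 1 window per gene. They show neither binding nor its absence.

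The deposited values gave between 5045361 and 13009975 reads per library. In the 3 naphthalene libraries and in osimertinib 2, a single gene without a name in the annotation used (ENSMUSG00000119584) took 43.9 to 60.3% of the reads, against at most 0.0337% elsewhere, which left 2018541 to 2965328 reads for all other genes there and 8418669 to 13006929 elsewhere. The 7 genes therefore rest on 56 to 406 reads each in those 4 libraries and on 251 to 1438 in the other 7. Counting error alone gives a coefficient of variation of 6.54 to 11.7% in the naphthalene group and 2.78 to 5.02% in the control group. Osimertinib 3 stood apart from the other libraries on the first principal component of all genes (score 72.7, the others −29.2 to 26.2, 38.4% of the variance). The lung markers Sftpc (alveolar type 2), Ager (alveolar type 1) and Scgb1a1 (club cells) were present in all 11 libraries, with lowest values of 5940, 577 and 1737. The values are CPM of a library size scaled by TMM, called CPM from here on.

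The 7 genes differed in level. Per kilobase of merged exons, Hmgcs1 was highest at 19.1 ± 3.71 CPM (SD over 11 libraries), then Idi1 at 11.8 ± 2.18, Sc5d at 7.64 ± 1.14, Cyp51 at 6.86 ± 1.304, Msmo1 at 5.74 ± 1.04, Sqle at 5.74 ± 0.787 and Lss at 2.40 ± 0.517. Hmgcs1 lay above Idi1, Idi1 above Sc5d and Sqle above Lss in 11 of 11 libraries. Sc5d lay above Cyp51 in 9 of 11 and Msmo1 above Sqle in 5 of 11, so the order of Msmo1 and Sqle is not fixed. Per kilobase of the longest annotated transcript Msmo1 was at 11.9 ± 2.15, above Sc5d (7.77 ± 1.16), so its place depends on which exons are counted.

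**Figure D1:**
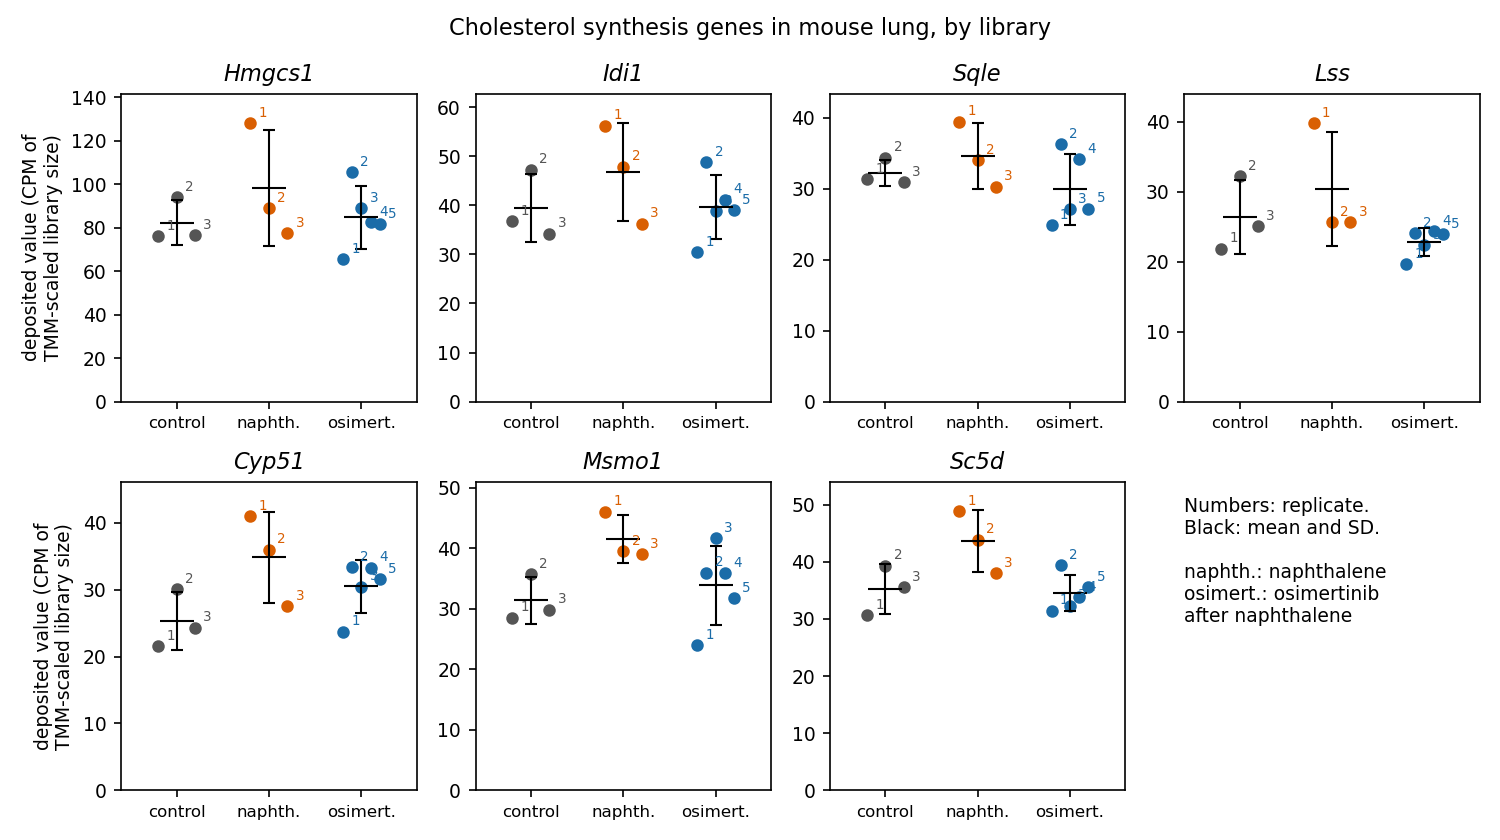
Deposited value in CPM (vertical axes, each from 0) of the 7 genes in each library, by group (horizontal axes). Points are libraries with their replicate number, and black marks are the mean and SD of a group. Naphthalene 1 is the highest library in all 7 panels, and osimertinib 1 is the lowest osimertinib library in all 7.

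The main feature of the 7 genes was that they went up and down together from library to library, within each group as well as between groups. Naphthalene 1 was the highest of the 11 libraries for 7 of 7 genes. Within the groups, control 2 was the highest control library for 7 of 7, naphthalene 3 the lowest naphthalene library for 7 of 7, and osimertinib 1 the lowest osimertinib library for 7 of 7. Osimertinib 2 was the highest osimertinib library for 5 of 7, the exceptions being Lss and Msmo1. Their summed level was 247, 313 and 257 CPM in control 1 to 3, 399.7, 316 and 274 in naphthalene 1 to 3, and 219.6, 323, 282, 285 and 271 in osimertinib 1 to 5. The naphthalene and control sums thus overlapped, as did the osimertinib and naphthalene sums.

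Over the 11 libraries the 21 pairs of these genes had a median Pearson r of 0.79 (0.60 for Sqle and Msmo1 to 0.94 for Hmgcs1 and Idi1) and a median Spearman rho of 0.74. With each group's mean subtracted the median r was 0.81, so the joint movement was present inside the groups. The sums farthest from their median were those of naphthalene 1 and osimertinib 1. Without these libraries the median r over 9 libraries was 0.50, and the lowest, of Sqle and Msmo1, was 0.04. Part of the high correlation therefore rests on those 2 libraries, while Hmgcs1 and Idi1 kept an r of 0.88. Among the 78 pairs of 13 other enzymes of the route the median r was 0.28 over all 11 libraries and 0.18 over those 9. Among the 28 pairs of 8 genes of fatty acid synthesis it was 0.32 and 0.24. Some of the 13 other enzymes were low, such as Mvd at 4.59 CPM in naphthalene 3 and Tm7sf2 at 3.79 in naphthalene 1. None of the 7 genes fell below 19.6 in any library. The part of counting error in the lower r of the other enzymes was not tested. All points share library, depth and scaling, and the 7 genes and the lists were chosen with earlier results of these data known. These values are therefore descriptions.

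Of the control libraries, control 2 was also high in adipocyte markers. The 5 markers (Adipoq, Plin1, Cfd, Cidec and Retn) summed to 145 CPM in control 2 and 181 in naphthalene 2, against 5.05 to 13.5 in the other control and naphthalene libraries and 8.63 to 24.9 in the osimertinib libraries. Plin1, Cfd and Retn were at 0 in at least 1 library. Naphthalene 1, the highest library of the 7 genes, had an adipocyte sum of 10.7. The 8 alveolar type 2 markers summed to 11839 to 13337 CPM in control, 12848 to 19206 in naphthalene and 14043 to 27738 in osimertinib libraries. Sftpc made the largest part, and no marker was at 0 in any library. In naphthalene against control 8 of 8 were above 0 (median log2 0.26), against 38.0% of all genes, and 3 were higher without overlap, against 4.94%. In osimertinib against naphthalene 7 of 8 were above 0 (median 0.15), against 60.5%. In osimertinib against control 8 of 8 were higher without overlap, against 2.91%. limma called none of them. The part of either cell type in the values of the 7 genes was not tested, and in whole lung fewer cells of a type and less RNA per cell cannot be told apart.

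**Figure D2:**
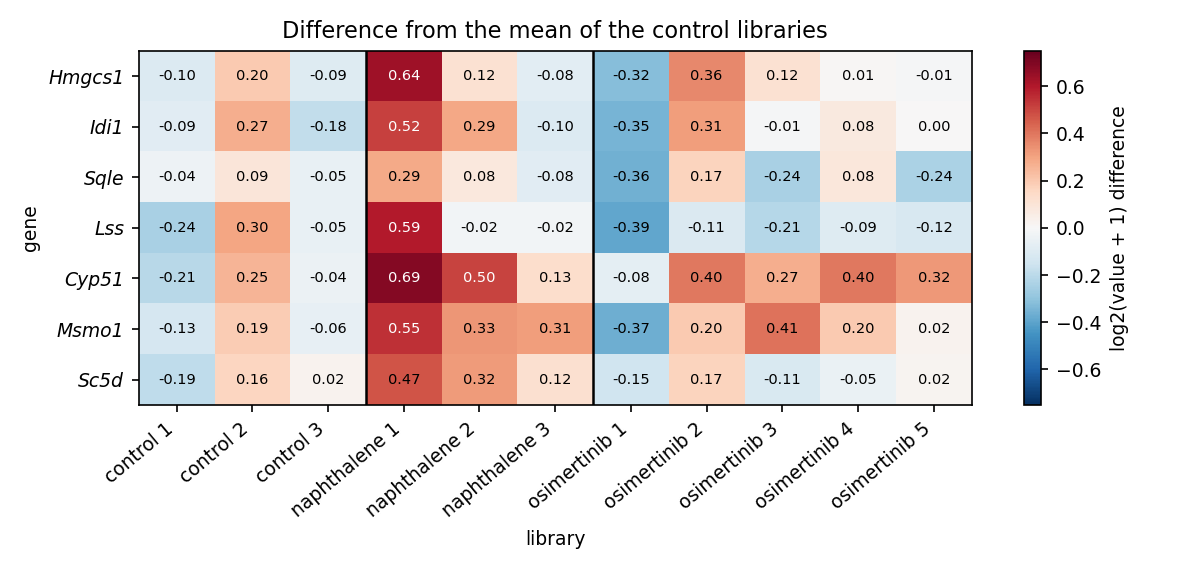
Difference of log2(CPM + 1) from the mean of the 3 control libraries for each gene (rows) in each library (columns), with the value in each cell and vertical lines between groups. The column of naphthalene 1 runs from 0.29 to 0.69 and that of osimertinib 1 from −0.39 to −0.08. Cyp51 is above 0 in 4 of the 5 osimertinib libraries by 0.27 to 0.40.

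Naphthalene was set against control to see what the injury alone left. All 7 genes had a higher mean in the naphthalene libraries on the deposited scale, by log2 0.09 (Sqle) to 0.44 (Cyp51) with a median of 0.23, where the median of all 16225 genes tested was −0.06. None passed limma's test with Benjamini-Hochberg adjustment over all genes (adjusted p = 0.616 to 0.953), where 0% of all genes passed. At an unadjusted p under 0.05 there were 3 of the 7 genes, all higher, against 1.73% of all genes higher and 7.46% in either direction at that level. Over all genes edgeR called 0 and DESeq2 11, though DESeq2 gave no adjusted p for 11369 of the 16225 genes here. edgeR and DESeq2 on the recovered reads called 0 of the 7, DESeq2 giving no adjusted p for Lss.

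Cyp51, the demethylase that acts on lanosterol, had the largest difference. Its values were 21.5, 30.1 and 24.3 CPM in control 1 to 3 and 41.0, 36.0 and 27.5 in naphthalene 1 to 3. Naphthalene 1 and 2 lay above every control library, while naphthalene 3 lay below control 2. The means were 34.9 ± 6.83 against 25.3 ± 4.34 (SD, n = 3 each), a log2 difference of 0.44 (SE 0.18, 95% interval 0.06 to 0.82, limma adjusted p = 0.616).

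Msmo1, which oxidises methyl groups on the sterol ring, was at 28.5, 35.8 and 29.9 CPM in control and at 46.1, 39.6 and 39.0 in naphthalene libraries. It was the 1 gene of the 7 whose groups did not overlap, where 4.94% of all genes lay higher without overlap. Its log2 difference was 0.40 (SE 0.17, 95% interval 0.018 to 0.78, limma adjusted p = 0.642).

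Sc5d, a desaturase near the end of the route, was at 30.6, 39.4 and 35.6 CPM in control and at 48.9, 43.9 and 38.1 in naphthalene libraries. Naphthalene 3 lay just below control 2. The log2 difference was 0.30 (SE 0.13, 95% interval 0.02 to 0.58, limma adjusted p = 0.639).

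The intervals of the other 4 genes included 0. Hmgcs1 was at 76.3, 94.2 and 76.7 CPM in control and at 128.2, 89.0 and 77.6 in naphthalene libraries, where naphthalene 1 alone lay above all controls (log2 0.23, 95% interval −0.19 to 0.65). Idi1 was at 36.7, 47.3 and 34.2 in control and at 56.2, 47.9 and 36.3 in naphthalene libraries (log2 0.23, −0.18 to 0.65). These are the 2 genes that followed each other most closely, and in both the lowest naphthalene library lay inside the control range and the highest above it. Sqle, the epoxidase, was at 31.3, 34.4 and 30.9 in control and at 39.5, 34.0 and 30.3 in naphthalene libraries (log2 0.09, −0.24 to 0.42). Lss, the cyclase, was at 21.9, 32.2 and 25.1 in control and at 39.8, 25.7 and 25.7 in naphthalene libraries (log2 0.18, −0.21 to 0.58). In Sqle and Lss naphthalene 1 carried the difference: without it the log2 values were −0.0033 and −0.019, and that of Hmgcs1 was 0.019. Without naphthalene 1 the median of the 7 was 0.09, and Cyp51 and Msmo1 stayed at 0.32 each. Without control 2 and naphthalene 2, the libraries high in adipocyte markers, the 7 genes lay between 0.15 and 0.54 with 0 called.

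These directions belong to the deposited scale. With the read totals of all libraries made equal the 7 genes lay at log2 −1.42 to −1.07 in naphthalene against control, where the median gene lay at −1.47, and limma called 7 of 7 lower along with 15512 of all genes. The 7 were above the median gene on both scales. Rescaling moves all genes of a library nearly alike, so this could hardly come out otherwise and adds no support. The high read share of 1 gene is present in all naphthalene and in no control libraries, so in this comparison it and naphthalene cannot be told apart. The share did not go with naphthalene in every library. The osimertinib mice were also given naphthalene, and the gene took 43.9% of the reads in osimertinib 2. In every other osimertinib library it took at most 0.0337%. What set the share was not tested. When the fit held a term for that share, which osimertinib 2 alone can estimate, the differences were 0.27 for Cyp51, 0.26 for Msmo1, 0.09 for Lss, 0.06 for Sc5d, −0.15 for Idi1, −0.19 for Hmgcs1 and −0.26 for Sqle.

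**Figure D3:**
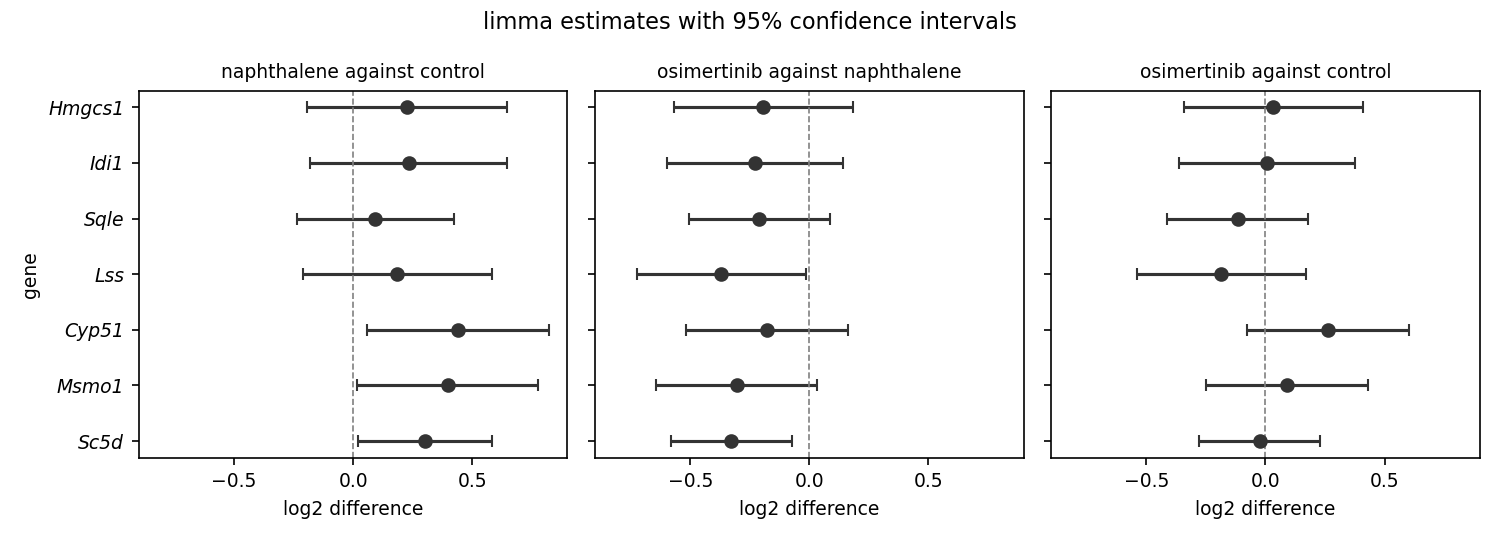
Log2 difference (horizontal axes) of each gene (vertical axis) in the 3 comparisons. Points are limma estimates and bars 95% confidence intervals. The intervals of Cyp51, Msmo1 and Sc5d in naphthalene against control and of Lss and Sc5d in osimertinib against naphthalene leave out 0, and no gene passed after adjustment over all genes.

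Osimertinib after naphthalene was set against naphthalene to see what the drug added. All 7 genes had a lower mean in the osimertinib libraries on the deposited scale, by log2 −0.37 (Lss) to −0.18 (Cyp51) with a median of −0.23, where the median of all genes tested was 0.06. With equal totals they lay at 0.77 to 0.98, below a median gene at 1.12. With limma 0 of the 7 passed over all genes (adjusted p = 0.350 to 0.746), where 0% of all genes passed. Of the 7, 2 had an unadjusted p under 0.05, both lower, against 3.22% of all genes lower and 7.08% higher (10.3% in either direction) at that level. Over all genes edgeR called 0 and DESeq2 21. edgeR and DESeq2 called 0 of the 7. Markers of other cells stand beside these values, and limma called none of them. All 4 B cell markers were lower without overlap in osimertinib against naphthalene (median log2 −1.05), against 2.12% of all genes. Their sums were 83.3 to 131 CPM in control, 91.3 to 130.1 in naphthalene and 25.3 to 62.7 in osimertinib libraries. In naphthalene against control all 4 club cell markers (median −0.74) and all 4 endothelial markers (median −0.26) had lower means. Of all 16225 genes tested 10056 were below 0 there. The club sums were 11659 to 14535, 4928 to 9404 and 2427 to 8903 CPM in the same order of groups, and the endothelial sums 1075 to 1168, 932 to 1074 and 936 to 1158. No marker of these 3 lists was at 0 in a library, and their part in the values of the 7 genes was not tested. The same naphthalene libraries stand in both comparisons, so values on opposite sides of 0 here and against control share those libraries and are not independent of each other.

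Lss was at 19.6, 24.1, 22.4, 24.3 and 23.9 CPM in osimertinib 1 to 5, all below the 3 naphthalene libraries (25.7 to 39.8). It was the 1 gene of the 7 without overlap, against 2.12% of all genes lower without overlap. Its means were 22.9 ± 1.97 (SD, n = 5) against 30.4 ± 8.13 (SD, n = 3), a log2 difference of −0.37 (SE 0.16, 95% interval −0.72 to −0.015, limma adjusted p = 0.465).

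Sc5d was at 31.4, 39.4, 32.3, 33.9 and 35.5 CPM in osimertinib 1 to 5, of which osimertinib 2 alone lay within the naphthalene range (38.1 to 48.9). The means were 34.5 ± 3.16 (SD, n = 5) against 43.6 ± 5.43 (SD, n = 3). The log2 difference was −0.33 (SE 0.12, 95% interval −0.58 to −0.07, limma adjusted p = 0.350).

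Msmo1 was at 24.0, 36.0, 41.7, 35.9 and 31.8 CPM in osimertinib 1 to 5, with osimertinib 3 inside and the other 4 below the naphthalene range (log2 −0.31, 95% interval −0.64 to 0.03). Cyp51 was at 23.7, 33.4, 30.5, 33.3 and 31.7, and osimertinib 1 alone lay below the naphthalene range (log2 −0.18, −0.52 to 0.16). In both genes, as in all 7, osimertinib 1 was the lowest of its group. Hmgcs1 was at 65.6, 106, 88.9, 82.5 and 81.6 (log2 −0.19, −0.57 to 0.18). Idi1 was at 30.4, 48.7, 38.8, 41.2 and 39.0 (log2 −0.23, −0.60 to 0.14). Sqle was at 24.9, 36.3, 27.1, 34.2 and 27.2 (log2 −0.21, −0.50 to 0.09). In these 3 genes, as in Cyp51 and Sc5d, osimertinib 2 was the highest library of its group. In Hmgcs1 and Idi1 4 of the 5 osimertinib libraries lay inside the naphthalene range.

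In osimertinib 2, as in naphthalene 1 to 3, 1 gene took a large share of reads. Set against naphthalene within those 4 libraries, it was at log2 0.14 for Hmgcs1, 0.08 for Idi1, 0.07 for Sqle, −0.043 for Cyp51, −0.14 for Sc5d, −0.20 for Msmo1 and −0.29 for Lss, with 0 called. A group of 1 library has no spread of its own, and these values assume that of the naphthalene libraries. So 4 of 7 genes lay below 0 in this within-share comparison, against 7 of 7 over all osimertinib libraries. Without naphthalene 1 the difference of Hmgcs1 was 0.013, that of Cyp51 −0.055 and that of Idi1 −0.086, while Sc5d, Msmo1, Lss and Sqle were at −0.24, −0.23, −0.17 and −0.11. Without osimertinib 2 the 7 genes lay between −0.39 and −0.21.

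Osimertinib after naphthalene against control sets injury and drug together against untreated lung. The 7 genes lay on both sides of 0, from log2 −0.19 (Lss) to 0.26 (Cyp51) with a median of 0.01, where the median of all genes was −0.01. With limma 0 passed (adjusted p = 0.999 in each), none had an unadjusted p under 0.05, and edgeR and DESeq2 called 0. Over all genes limma called 1 (0.00616%) here, and 4.80% had an unadjusted p under 0.05 (2.31% higher, 2.5% lower). The 95% intervals of Hmgcs1 (−0.34 to 0.41), Idi1 (−0.36 to 0.38), Sc5d (−0.28 to 0.23) and Msmo1 (−0.25 to 0.43) reach both above and below 0. Without the libraries of high read share, which leaves 4 osimertinib and 3 control libraries, the range was −0.20 (Lss) to 0.23 (Cyp51).

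Cyp51 and Lss stood at opposite ends of that comparison, and their ratio within a library does not depend on how libraries are scaled. The ratios of all 21 pairs of the 7 genes were computed after the values had been seen. Lss to Cyp51 was 1.02, 1.07 and 1.03 in control 1 to 3, 0.969, 0.714 and 0.933 in naphthalene 1 to 3, and 0.826, 0.722, 0.734, 0.731 and 0.756 in osimertinib 1 to 5. All 5 osimertinib libraries lay below all controls (log2 −0.46, exact two-sided permutation p = 0.0357, the smallest that 3 against 5 libraries can give, 0.482 adjusted over the 63 ratio tests). Sqle to Cyp51 also had no overlap, at 0.859 to 1.09 against 1.14 to 1.45 (log2 −0.39, exact permutation p = 0.0357, adjusted p = 0.482). The other 19 ratios overlapped between osimertinib and control. In naphthalene against control 6 of the 21 ratios had no overlap, Lss to Cyp51 and Sqle to Cyp51 among them, each with an exact permutation p of 0.1, the smallest that 3 against 3 libraries can give. In osimertinib against naphthalene 0 of 21 lay apart. In osimertinib against control none of the 7 genes by itself lay apart, against 2.91% of all genes higher and 3.43% lower without overlap.

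Neither ratio passes after adjustment, but with these group sizes no ratio could pass it, whatever its values. Not passing therefore carries no information. Both ratios contain Cyp51. Cyp51 overlaps the gene Akap9 on the opposite strand, which was at 123 to 132 CPM in control, 105 to 148 in naphthalene and 103 to 149.5 in osimertinib libraries. Whether strand was used in counting is not given in the sources used here, so reads of both genes may be mixed, and their part in the ratio was not tested. By contrast Hmgcs1 to Idi1 kept a median of 2.08 in control, 2.14 in naphthalene and 2.16 in osimertinib libraries.

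**Figure D4:**
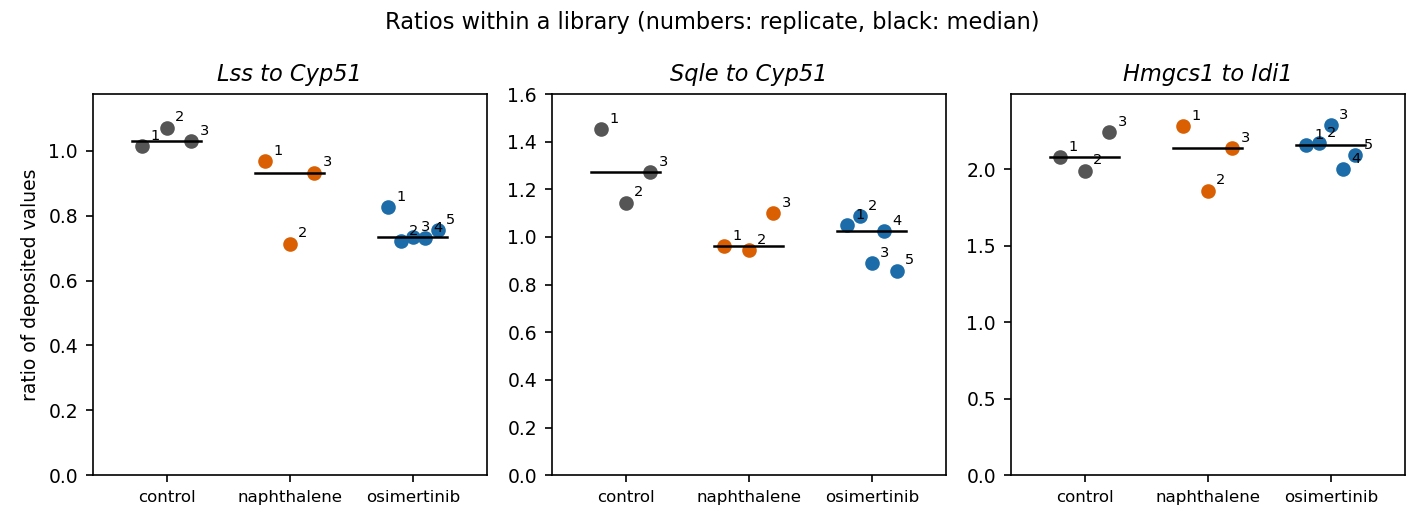
Ratio of deposited values within each library (vertical axes, from 0) by group (horizontal axes) for 3 gene pairs. Points are libraries with their replicate number and black lines are medians. Lss to Cyp51 lies at 0.722 to 0.826 in the osimertinib libraries and at 1.02 to 1.07 in the controls, while Hmgcs1 to Idi1 overlaps in all 3 groups.

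The rest of the route and the genes around it were read from fixed lists. Of 13 other enzymes of cholesterol synthesis limma called 0 in each comparison. In naphthalene against control their median was log2 0.05 with 8 of 13 above 0, against 38.0% of all genes. In osimertinib against naphthalene their median was −0.01 with 7 of 13 below 0, against 6406 of all 16225 genes. Hsd17b7, a ketosteroid reductase of the same route, followed the 7 genes most closely (r = 0.91 with their mean over 11 libraries). It was at 8.01, 12.5 and 10.3 CPM in control, 14.2, 11.1 and 10.6 in naphthalene and 5.88 to 11.6 in osimertinib libraries, lowest in osimertinib 1 (log2 −0.39, SE 0.21, limma adjusted p = 0.556 against naphthalene). Nsdhl, which acts beside it in removing methyl groups, had an r of 0.76. Pmvk, a kinase of the mevalonate steps, did not follow them (r = −0.29). It was at 7.12 to 14.2 CPM in naphthalene and 11.6 to 23.9 in osimertinib libraries (log2 0.67, SE 0.27, limma adjusted p = 0.413).

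Of 6 genes of sterol sensing limma called 0 in each comparison, with medians of −0.05, 0.02 and 0.02. Srebf2 itself was at 106, 133 and 117 CPM in control, 132, 114 and 106 in naphthalene and 105, 126, 97.6, 120 and 108 in osimertinib libraries, with an r of 0.72 with the 7 genes. Its group differences were −0.01, −0.07 and −0.09. Insig1, which holds Scap in the endoplasmic reticulum and is a target of SREBP2, was at 65.1 to 91.5 CPM in control, 61.3 to 77.7 in naphthalene and 62.2 to 72.3 in osimertinib libraries (r = 0.55). Its highest library was control 2.

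Of 8 genes of uptake and lysosomal release limma called 0 in each comparison. In osimertinib against naphthalene 7 of the 8 were above 0 on the deposited scale (median 0.12), against 60.5% of all genes. Of the 8, 1 was higher at an unadjusted p under 0.05, against 7.08% of all genes. Lipa, the lysosomal acid lipase that frees cholesterol from its esters, was at 52.3, 50.2 and 50.6 CPM in control, 57.1, 49.4 and 50.9 in naphthalene and 66.3, 67.2, 65.3, 59.3 and 53.0 in osimertinib libraries. All 5 osimertinib libraries lay above all controls (log2 0.28, SE 0.10, limma adjusted p = 0.774), where 2.91% of all genes lay higher without overlap. Npc1 and Npc2 hand cholesterol out of the lysosome. Npc1 was at 94.4 to 98.2 in control, 90.6 to 107 in naphthalene and 103 to 115 in osimertinib libraries (log2 0.20 against control, SE 0.08, limma adjusted p = 0.913). Npc2 was at 413 to 493 in control, 403 to 558 in naphthalene and 486 to 1025 in osimertinib libraries, highest in osimertinib 3 (log2 0.54 against control, SE 0.21, limma adjusted p = 0.913).

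Of 7 genes of efflux and storage, 5 were above 0 in osimertinib against naphthalene (median 0.20), against 60.5% of all genes, and limma called 0. Apoe, an apolipoprotein that carries cholesterol between cells, was at 136 to 180 CPM in naphthalene and 184 to 218 in osimertinib libraries without overlap (log2 0.38, SE 0.11, limma adjusted p = 0.253), where 3.82% of all genes lay higher without overlap. Macrophage markers are given beside it, and limma called none of them. In osimertinib against naphthalene 5 of 5 markers of monocyte-derived macrophages were above 0, 3 of them at an unadjusted p under 0.05. Of 6 markers of alveolar macrophages 5 were above 0, 1 of them at that level, with Marco at log2 −0.46. Over all genes 60.5% were above 0, and 7.08% were higher at that level. The 5 markers of monocyte-derived macrophages summed to 45.5 to 62.1 CPM in control, 59.7 to 74.4 in naphthalene and 71.8 to 115 in osimertinib libraries, and the 6 markers of alveolar macrophages to 340 to 381, 331 to 572 and 464 to 961, most of it Chil3, with no marker of either list at 0 in any library. Their part in the values of Lipa, Npc1, Npc2 and Apoe was not tested.

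Of 8 genes of fatty acid synthesis limma called 0 in each comparison, with medians of −0.01, 0.02 and −0.04. Fasn, the fatty acid synthase, was at 584 to 965 CPM in control, 784 to 1160 in naphthalene and 756 to 1254 in osimertinib libraries (r = 0.64 with the 7 genes). Acss2, which makes acetyl-CoA from acetate, was at 19.9 to 30.3 in control, 21.1 to 25.3 in naphthalene and 13.2 to 21.6 in osimertinib libraries (log2 −0.48 against control, SE 0.17, limma adjusted p = 0.767).

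**Figure D5:**
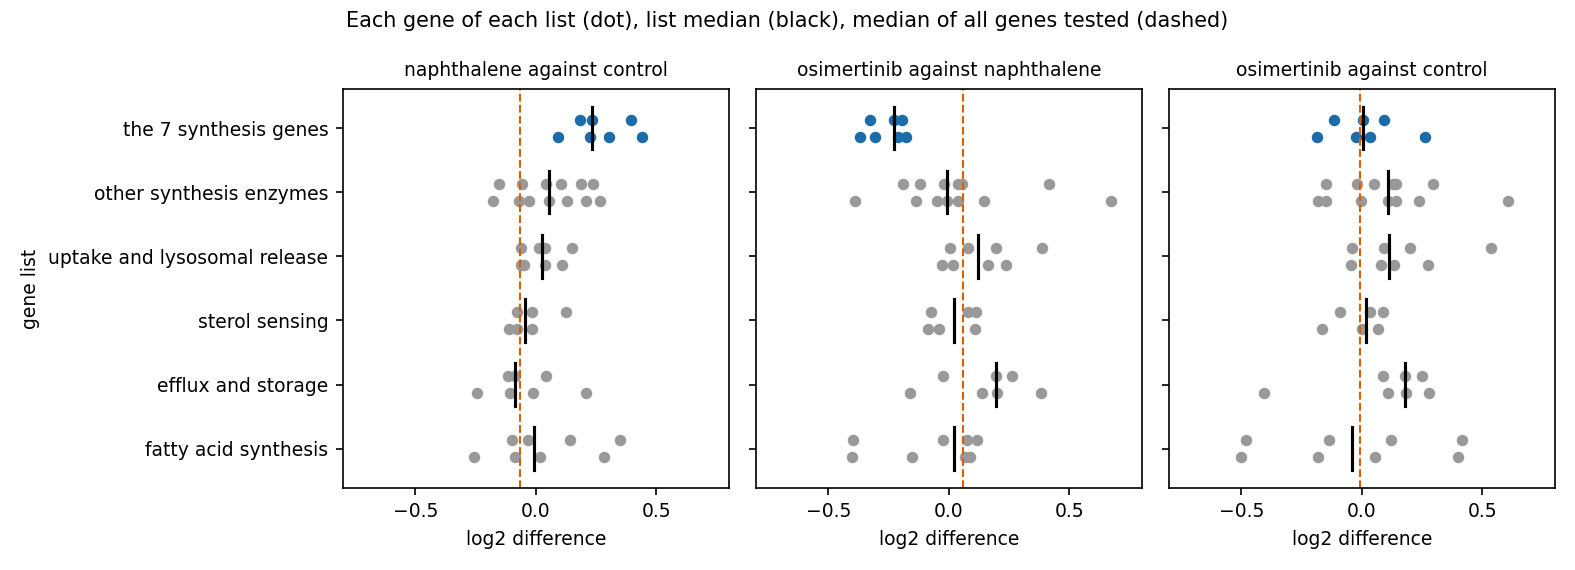
Log2 difference (horizontal axes) of each gene of 6 lists (vertical axis) in the 3 comparisons. Dots are genes, black bars list medians and the dashed line the median of all 16225 genes tested. The 7 synthesis genes lie at 0.09 to 0.44 in naphthalene against control and at −0.37 to −0.18 in osimertinib against naphthalene, and the dots of the other lists lie on both sides of 0 in those panels.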

How the data were processed

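RNA of 11 lung libraries (3 control, 3 naphthalene, 5 osimertinib) went through ribosomal RNA depletion and a directional kit, per the labels' protocols. The values are a normalised signal that the authors deposited. The submitters' processing notes give the build GRCm39 and the tools edgeR, Bowtie2, RSEM 1.3.0 and Trimmomatic 0.38, and no roles. Each value divided by the smallest of its library gave a whole number within 0.01 (100% of values), taken as reads. TMM-scaled CPM computed from those reads with edgeR matched the deposited signal (largest relative difference 1.11e-15). Symbols were read from GENCODE M21 on GRCm38 (23123 of 23255 IDs named) and promoters from RefSeq on GRCm38.p6. No library pair of a group agreed within sampling noise (chi-square at least 3.66 per degree of freedom).

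limma 3.58.1 (R 4.3.3) was run on log2(value + 1) for the 16225 genes that averaged 1 CPM or more, all 7 among them. The fit held the 3 groups together, left 8 residual degrees of freedom and used a variance trend. P-values were adjusted by Benjamini-Hochberg across the tested genes, with a threshold of 0.05. The scale understates the change of low genes. Alternatives were DESeq2 1.42.0 and edgeR 4.0.16 on those reads, and other pseudocounts, filters, scalings, weights, samples and a replicate block. Scripts were tested on simulated data. Ratios were tested by exact permutation.

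The 7 genes, the lists and the tests were chosen with earlier results of these data known. From each list at most 3 genes were named per comparison, those with the smallest unadjusted p, and some are not reported here. Akap9 and the cell markers fall outside that rule. To see whether replicate numbers pair libraries, deviations from the group mean were correlated between same-numbered libraries. For osimertinib and naphthalene the 3 values were 0.122, 0.159 and 0.523. Osimertinib 1 and osimertinib 2 each correlated more with a naphthalene library of another number (0.137 and 0.193). These values therefore do not show that the numbers pair libraries.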

Additional observations from a re-analysis of the deposited data

How the results depend on the processing

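Depth limits these values most in the naphthalene libraries and osimertinib 2, where each of the 7 genes rests on 56 to 406 reads. No alternative run except equal totals called any of the 7 genes. With equal totals limma called 7 in naphthalene against control and 7 in osimertinib against naphthalene, beside 15512 and 14278 of all genes, and 88 in osimertinib against control. The single differences were then −1.32, −1.29, −1.42, −1.32, −1.07, −1.12 and −1.22 for Hmgcs1, Idi1, Sqle, Lss, Cyp51, Msmo1 and Sc5d in the first, 0.98, 0.93, 0.94, 0.77, 0.97, 0.85 and 0.83 in the second, and −0.34 (Hmgcs1), −0.36 (Idi1), −0.10 (Cyp51) and −0.27 (Msmo1) in the third. All 7 lay above the median gene in 27 of 28 alternatives of naphthalene against control and below it in 27 of 29 of osimertinib against naphthalene. Many alternatives could not change the estimates, such as leaving out libraries of the group not compared. Rescaling of whole libraries could hardly change the place relative to the median gene. These counts therefore do not measure how firm the differences are. With the read-share term 4 of 7 lay above the median gene in the first. With that term, or with libraries of high share alone, 3 of 7 lay above it in the second. The read-share term reversed Hmgcs1 (−0.19), Sqle (−0.26) and Idi1 (−0.15) in the first and, as did using libraries of high share alone, Hmgcs1 (0.14), Sqle (0.074) and Idi1 (0.079) in the second. It moved Hmgcs1 to −0.050 and Idi1 to −0.070 against control, as did leaving out the libraries of high share. Also against control, Hmgcs1, Msmo1 and Idi1 were −0.077, −0.029 and −0.067 with array weights and −0.11, −0.050 and −0.092 without osimertinib 2 and 3, Idi1 was −0.022 with quantile normalisation, and Sc5d was 0.057 without control 2 and naphthalene 2. The cause of these reversals was not tested.

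Counts over all genes, which were 0, 0 and 1 in the order above, were 21 and 1 with only the groups compared, 5, 4 and 149 with array weights, 2, 2 and 2 with the read-share term, 38, 47 and 2 without osimertinib 2 and 3, and 11, 21 and 75 with DESeq2. They were 1 in the second with quantile normalisation, and in the third 2 without libraries of high share and 0 without a variance trend or without control 2 and naphthalene 2. With 1 library left out they were 0 to 12, 0 to 11 and 0 to 2, the 12 and 11 without osimertinib 2 and the 2 without osimertinib 2 or 3. With 1 library left out the ranges of reversed genes were −0.0033 to 0.18 for Sqle and −0.019 to 0.33 for Lss in the first, −0.35 to 0.013 for Hmgcs1 in the second, and −0.050 to 0.13 (Hmgcs1), −0.086 to 0.14 (Idi1) and −0.12 to 0.057 (Sc5d) in the third.

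The replicate block called 0 of the 7 genes in each comparison and 0 genes in osimertinib against control. Between osimertinib and naphthalene, where the values do not show that the numbers pair libraries, it changed no call. Idi1 was −0.015 against control with the block. Between control and the other groups correlations of same-numbered libraries ran from −0.15 to 0.20. The highest, of naphthalene 2 and control 2, lay above the 0.040 reached with another number. These values do not settle whether those numbers pair libraries.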

Other observations

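The genes whose pattern over the 11 libraries was most like the mean of the 7 synthesis genes, among 11695 genes that averaged 5 CPM or more, and outside the lists, were Ermp1, Naa15, Arpin, Rp2, Prps2, Wapl, Sec22c, Cyb5b, Synrg and Sema3d, with a Pearson r of 0.90 for Ermp1 down to 0.85 for Sema3d. With group means subtracted their r was 0.77 to 0.87. The median r of all 11695 genes was −0.12 and the 99th percentile 0.69. Cyb5b is a cytochrome b5 of the outer mitochondrial membrane, Prps2 makes the ribose phosphate donor of nucleotide synthesis and Naa15 is a subunit of an N-terminal acetyltransferase. These values rank genes by likeness in libraries that share depth and scaling, and carry no test.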
